A study of Mus musculus with 39 samples.

Results

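The mRNAs of the tricarboxylic acid (TCA) cycle and of pyruvate dehydrogenase were followed through sucrose density gradients of mouse liver. They comprise 34 genes, all found by symbol in both deposited tables, out of 13230 genes that the tables share: the enzymes of the cycle, succinate dehydrogenase, the pyruvate dehydrogenase complex with its kinases and a phosphatase, and linked enzymes of the matrix and cytosol. The samples were 39 RNA libraries from livers of wild type FVB female mice whose age was not given in the sources used here, 1 mouse per gradient and 2 gradients, so no treatment or genotype was compared. Liver was homogenized with beads and no detergent, nuclei were removed, and the homogenate was layered on a 10 to 50% sucrose gradient that was collected as 24 fractions, numbered from the light to the dense end. Gradient 1 gave 17 libraries (fractions 4 to 19 and 21) and gradient 2 gave 22 (fractions 3 to 24). All values are TPM, transcript abundances corrected for length and scaled to the same total in each library, so that a value is a share of the RNA of a fraction and does not give the amount of RNA in it. For 17 fractions both gradients have a library, whereas fractions 3, 20, 22, 23 and 24 have one in gradient 2 only and so no replicate, and adjacent fractions of a gradient were never treated as replicates.

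The TCA cycle oxidizes acetyl-CoA in the mitochondrial matrix and passes electrons to the respiratory chain. Pyruvate enters mitochondria through a carrier and becomes acetyl-CoA through pyruvate dehydrogenase, or oxaloacetate through pyruvate carboxylase, the entry step of gluconeogenesis in liver. All the proteins discussed here are encoded in the nucleus, and their mRNAs are translated in the cytoplasm or at the surface of mitochondria.

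Together the 34 mRNAs took a growing share of the RNA from the light to the dense end. Their summed TPM was 0.645% ± 0.027 (SD, n = 2 gradients) of the total in fractions 4 to 7, called the light zone here, 1.30% ± 0.03 in fractions 10 to 13, the middle zone, and 1.69% ± 0.08 in fractions 16 to 19, the dense zone. The 8 libraries of each zone ran from 0.594 to 0.715%, from 1.08 to 1.45% and from 1.58 to 1.75%, and the zones did not overlap. The most abundant member was Glud1, with a mean TPM of 1480 over both gradients, and the least abundant was Pdk4, with 6.15. TPM is corrected for transcript length, so these levels can be set beside each other, and no member was among the 50 most abundant genes of a gradient. Each gradient was loaded with a homogenate of whole liver, so a fraction does not tell which cell type its RNA came from.

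The center of sedimentation, the mean fraction number weighted by TPM over the 17 fractions that both gradients have, placed most members toward the dense end. Its median was 13.9 over the members (range 9.25 to 15.6), whereas the median over the 11754 genes whose TPM averaged 1 or more in the zone libraries was 11.2 (quartiles 9.82 and 12.8). Mdh2, the malate dehydrogenase of the matrix, had the densest center (15.6 ± 0.01, SD, n = 2), and Pdk1, a kinase that inhibits pyruvate dehydrogenase, had the lightest (9.25 ± 0.30). The next in order at the dense end were Mdh1 (15.5 ± 0.01), Fh1 (15.1 ± 0.04) and Pcx (15.0 ± 0.02), and these 4 are separated by more than their spread. Between Idh1 (14.6 ± 0.05) and Suclg1 (14.6 ± 0.45) the difference was smaller than the spread between gradients. Profiles of a gene were similar in both gradients: Pearson's R over the 17 shared fractions had a median of 0.958 (range 0.846 to 0.992) and was above 0.9 for 31 of 34 members. Neighboring fractions are not independent, so these values are descriptions. The lowest R values were those of Pdk4 (0.846) and Glud1 (0.856).

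**Figure D1:**
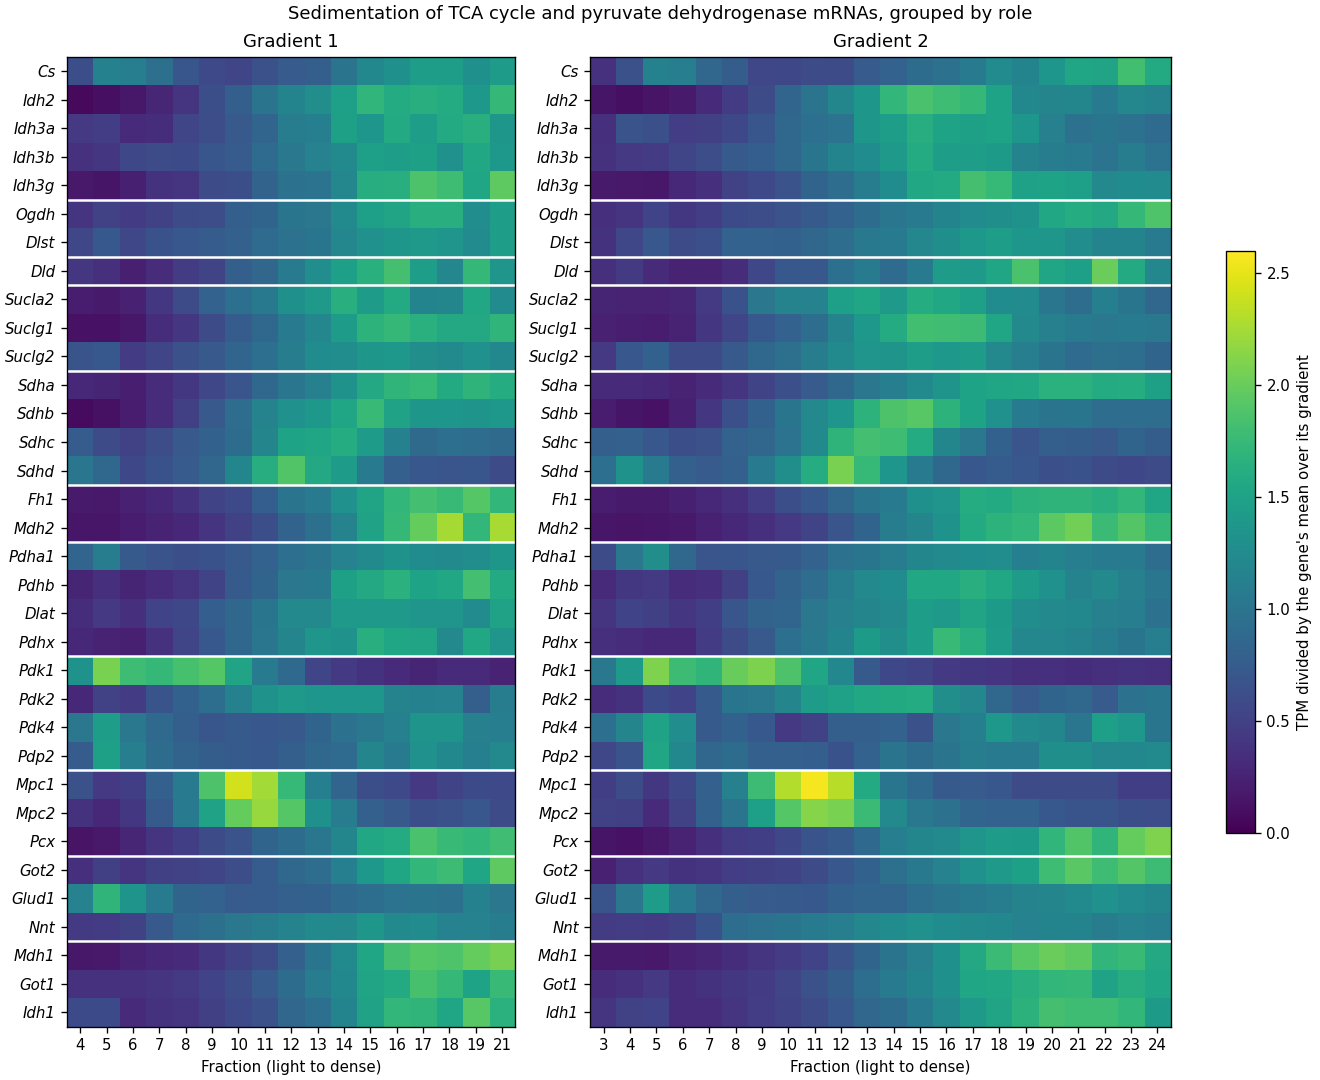
Heatmap of the 34 mRNAs (rows, grouped by role with white lines) in the 17 fractions of gradient 1 (left) and the 22 fractions of gradient 2 (right), from light to dense; color gives TPM divided by the gene's mean over its gradient. Most rows brighten toward the dense end, Mpc1, Mpc2, Sdhc and Sdhd are brightest between fractions 10 and 14, and Pdk1 is brightest at fraction 5.

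To compare zones gene by gene, log2(TPM + 1) was averaged over the 4 fractions of each zone within a gradient, and the zones were compared with limma across 11754 genes (n = 2 gradients per zone). Calls are Benjamini-Hochberg adjusted p-values under 0.05, and changes are on the log2(TPM + 1) scale, which understates the change of low genes. The 3 comparisons share their zone values. From the light to the middle zone, 28 of 34 members were higher and 1 was lower, with a median change of 1.15, against 23.5% of all genes higher, 24.1% lower and a median of 0.05. From the light to the dense zone, 27 members were higher and 1 was lower (median 1.61), against 22.3% of all genes higher, 39.6% lower and a median of −0.43. From the middle to the dense zone, 11 members were higher and 4 were lower (median 0.56), against 4.79% of all genes higher, 22.5% lower and a median of −0.28. The sign was the same in both gradients for 33, 33 and 34 of 34 members in these comparisons. The same count over all genes was not made, and the paper reports similar profiles in both gradients across the transcriptome.

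The overall shift of the transcriptome depends on scaling. After quantile normalization of the libraries the median change of all genes was −0.05 from the light to the dense zone and 0.05 from the middle to the dense zone, and the split of called genes between light and dense zones went from 2616 higher and 4658 lower to 3585 higher and 3500 lower. The members then had 24 higher and 2 lower from light to dense (all genes: 30.5% higher, 29.8% lower), and 18 higher and 4 lower from middle to dense (all genes: 10.5% higher, 13.7% lower). All zones of a gradient were taken from 1 homogenate, and a fit with the gradient as a replicate block gave 24 members higher and 6 lower from the middle to the dense zone (all genes: 14.1% higher, 39.3% lower) and 5 lower from the light to the middle zone (all genes: 35.0% lower).

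The order of the zone means sorts the members into 4 shapes, as a description. Means rose from light through middle to dense in 23 of 34 members and in 21.9% of all genes. The middle zone was highest in 5 members, Sdhc, Sdhd, Mpc1, Mpc2 and Pdk2, and in 29.9% of all genes. It was lowest in 5 members, Cs, Glud1, Pdha1, Pdk4 and Pdp2, and in 10.7% of all genes. Means fell throughout in Pdk1 alone among the members, and in 37.0% of all genes.

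**Figure D2:**
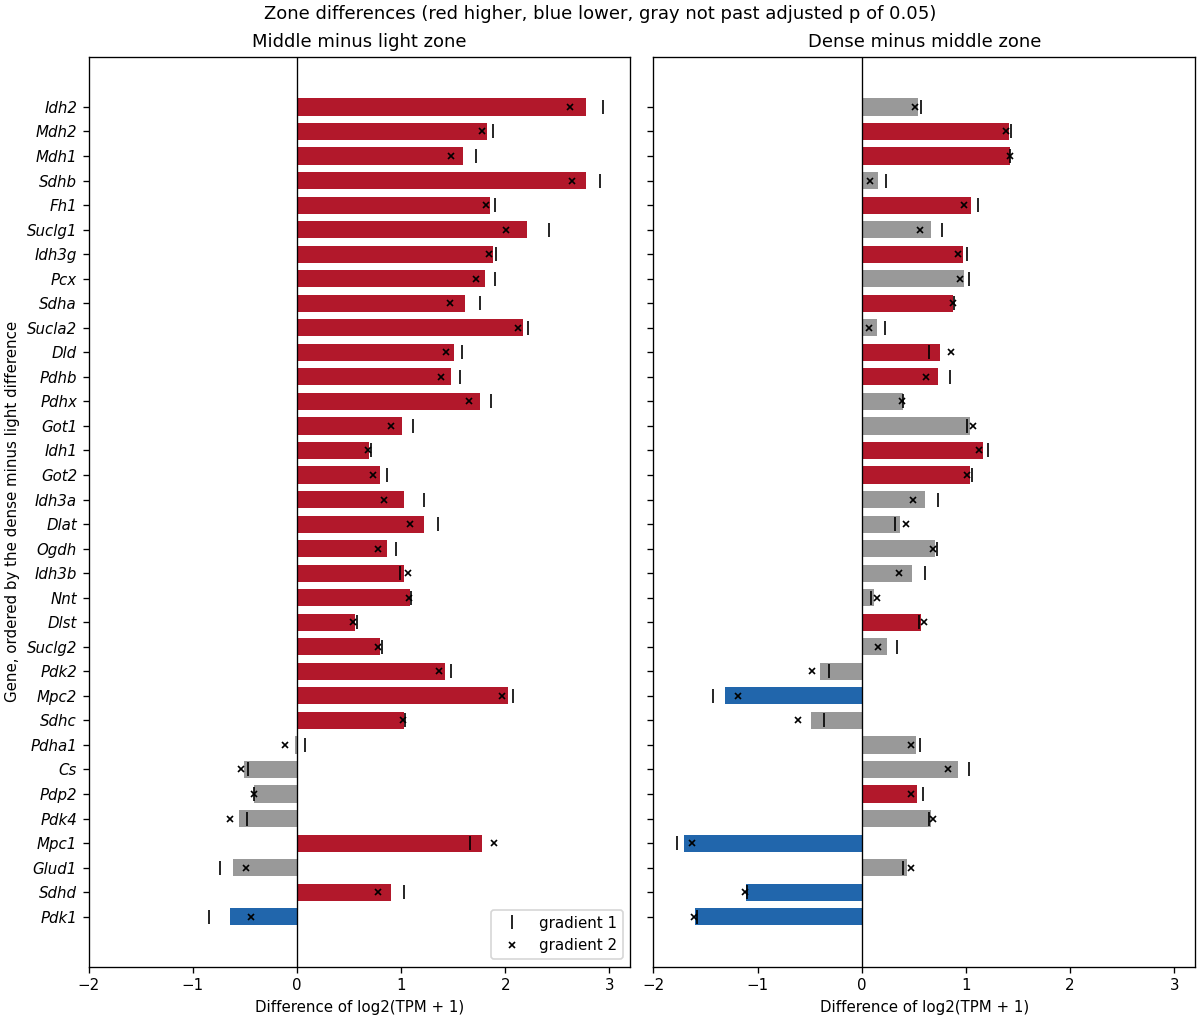
Differences of log2(TPM + 1) between the middle and light zones (left) and the dense and middle zones (right) for each member, ordered by the dense minus light difference; bars are means of 2 gradients, ticks and crosses are gradients 1 and 2, and color marks calls at an adjusted p under 0.05 (limma). On the left 28 bars are called higher and 1 lower, and on the right 11 higher and 4 lower, with Mpc1, Pdk1, Mpc2 and Sdhd the 4 lower.

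Of the enzymes from citrate to 2-oxoglutarate, the isocitrate dehydrogenases were higher in the dense than the light zone, and citrate synthase (Cs) was not called. From middle to dense only Idh3g was called among them (0.97, limma adjusted p = 0.00857), and Cs changed by 0.93. Idh2, the NADP-dependent isocitrate dehydrogenase of the matrix (chr7:80094846-80115392, mm10, minus strand), had TPM from 15.7 to 76.5 in the 8 light libraries (median 36.6), from 198 to 327 in the middle libraries (median 266) and from 288 to 427 in the dense libraries (median 400.2). The light libraries lay below all others, and the middle and dense libraries overlapped. Its change from light to dense had the highest value among the members (3.32, SE 0.17, adjusted p = 0.000301), ahead of Mdh2 by less than the SE. From light to middle its change (2.78, SE 0.17, adjusted p = 0.0011) was close to that of Sdhb (2.78, SE 0.21). From middle to dense Idh2 changed by 0.54 (SE 0.17, limma adjusted p = 0.0603) and was not called, but was with the replicate block (adjusted p = 0.0186). Its level was highest at fraction 21 in gradient 1, the densest library of that gradient, and at fraction 15 in gradient 2.

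The NAD-dependent isocitrate dehydrogenase, which works in the cycle itself, is built from the products of Idh3a, Idh3b and Idh3g, and all 3 mRNAs were higher in the dense than the light zone, by 1.64, 1.51 and 2.85. Their TPM profiles ran together, with pairwise Pearson's R from 0.940 to 0.964 over 17 fractions of gradient 1 and from 0.889 to 0.956 over 22 fractions of gradient 2. Over all 561 pairs of members the median R was 0.774 in gradient 1 and 0.595 in gradient 2. The proportions of the 3 mRNAs differed along the gradient all the same. The TPM ratio of Idh3g to Idh3b, partners of the alpha subunit Idh3a, was 0.165 ± 0.004 (SD, n = 2) in the light zone, 0.300 ± 0.027 in the middle zone and 0.422 ± 0.006 in the dense zone.

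Cs encodes citrate synthase, the first enzyme of the cycle. Its TPM ran from 73.4 to 167 in the light libraries (median 129), from 64.9 to 115 in the middle libraries (median 82.4) and from 111 to 213 in the dense libraries (median 167). The 3 zones overlapped, and no change passed the test. With the gradient as a replicate block, Cs was lower in the middle than the light zone (−0.50, limma adjusted p = 0.0106), higher in the dense than the middle zone (0.93, adjusted p = 0.00198) and higher in the dense than the light zone (0.42, adjusted p = 0.0167). After quantile normalization Cs was also lower from light to middle (−0.84, limma adjusted p = 0.0412) and higher from middle to dense (1.05, adjusted p = 0.0383).

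The 2-oxoglutarate dehydrogenase complex converts 2-oxoglutarate to succinyl-CoA. Ogdh, its first subunit, was higher by 1.57 in the dense than the light zone, Dlst, the succinyltransferase, by 1.13, and Dld, the lipoamide dehydrogenase that this complex shares with pyruvate dehydrogenase, by 2.26. Dlst ran from 139 to 184 TPM in the light libraries, from 200 to 262 in the middle libraries and from 321 to 362 in the dense libraries, so the 3 zones did not overlap. In gradient 2, Ogdh was highest in the last fraction, 24, at 243 TPM.

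Succinyl-CoA ligase pairs Suclg1, the common alpha subunit, with a beta subunit that sets the nucleotide, Sucla2 for ATP or Suclg2 for GTP. From the light to the middle zone Suclg1 changed by 2.21 (SE 0.19, adjusted p = 0.00121) and Sucla2 by 2.17 (SE 0.15), closer than their SE. Suclg1 had 86.4 to 231 TPM in the light libraries and 465 to 797 in the middle libraries, with no overlap between them. The beta subunits differed in size of change: Sucla2 was higher by 2.32 in the dense than the light zone and Suclg2 by 1.04. Suclg2 had 3.28 ± 0.15 times the TPM of Sucla2 in the light zone, 1.17 ± 0.12 times in the middle zone and 1.25 ± 0.11 times in the dense zone (SD, n = 2).

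Succinate dehydrogenase, complex II of the respiratory chain, joins catalytic subunits in the matrix (Sdha, which binds the flavin, and Sdhb, which holds the iron-sulfur clusters) with anchors in the inner membrane (Sdhc and Sdhd). The mRNAs of the catalytic subunits were higher in the dense zone, and those of the anchors were highest in the middle of the gradient. Sdha had TPM from 127 to 194 in the light libraries (median 175), from 382 to 672 in the middle libraries (median 519) and from 810 to 1038 in the dense libraries (median 939), with no overlap between zones. Sdhb had 53.9 to 308 TPM in the light libraries (median 124), 653 to 1258 in the middle libraries (median 921) and 796 to 1262 in the dense libraries (median 978). Sdhb was thus higher in every middle library than in every light library (change 2.78, SE 0.21, adjusted p = 0.00119), its middle and dense libraries overlapped, and it was highest at fraction 15 in both gradients.

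Sdhd (chr9:50596357-50603812, minus strand) had TPM from 263 to 551 in the light libraries (median 372), from 533 to 888 in the middle libraries (median 731) and from 293 to 373 in the dense libraries (median 324). It was higher in the middle than the light zone by 0.90 and lower in the dense than the middle zone (change −1.11), and its highest fraction was 12 in both gradients. Between the dense and light zones it changed by −0.21 and was not called, but it was lower after quantile normalization (−0.66, limma adjusted p = 0.0119). Sdhc was highest at fractions 14 and 13 of gradients 1 and 2. It was higher by 1.03 in the middle than the light zone, and its further change to the dense zone, −0.49, was not called, but was called lower with the replicate block (limma adjusted p = 0.019) and without fraction 16 of gradient 1 (−0.53, adjusted p = 0.0476). Sdhc was also called higher in the dense than the light zone (0.53), a call that was lost without fraction 16 of gradient 2 (0.47, limma adjusted p = 0.0665) and after quantile normalization.

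The proportions of the subunits therefore turned over along the gradient. Per copy of Sdha, in TPM, there were 2.31 ± 0.04 of Sdhd in the light zone, 1.39 ± 0.06 in the middle zone and 0.348 ± 0.014 in the dense zone (SD, n = 2). For Sdhc the same ratios were 1.83 ± 0.07, 1.21 ± 0.12 and 0.477 in both gradients. For Sdhb they were 0.888 ± 0.146, 1.77 ± 0.33 and 1.08 ± 0.14, so that Sdhb exceeded Sdha most in the middle zone. Pearson's R between Sdha and Sdhd profiles was −0.01 over 17 fractions of gradient 1 and −0.38 over 22 fractions of gradient 2, and between Sdhc and Sdhd it was 0.765 and 0.743.

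**Figure D3:**
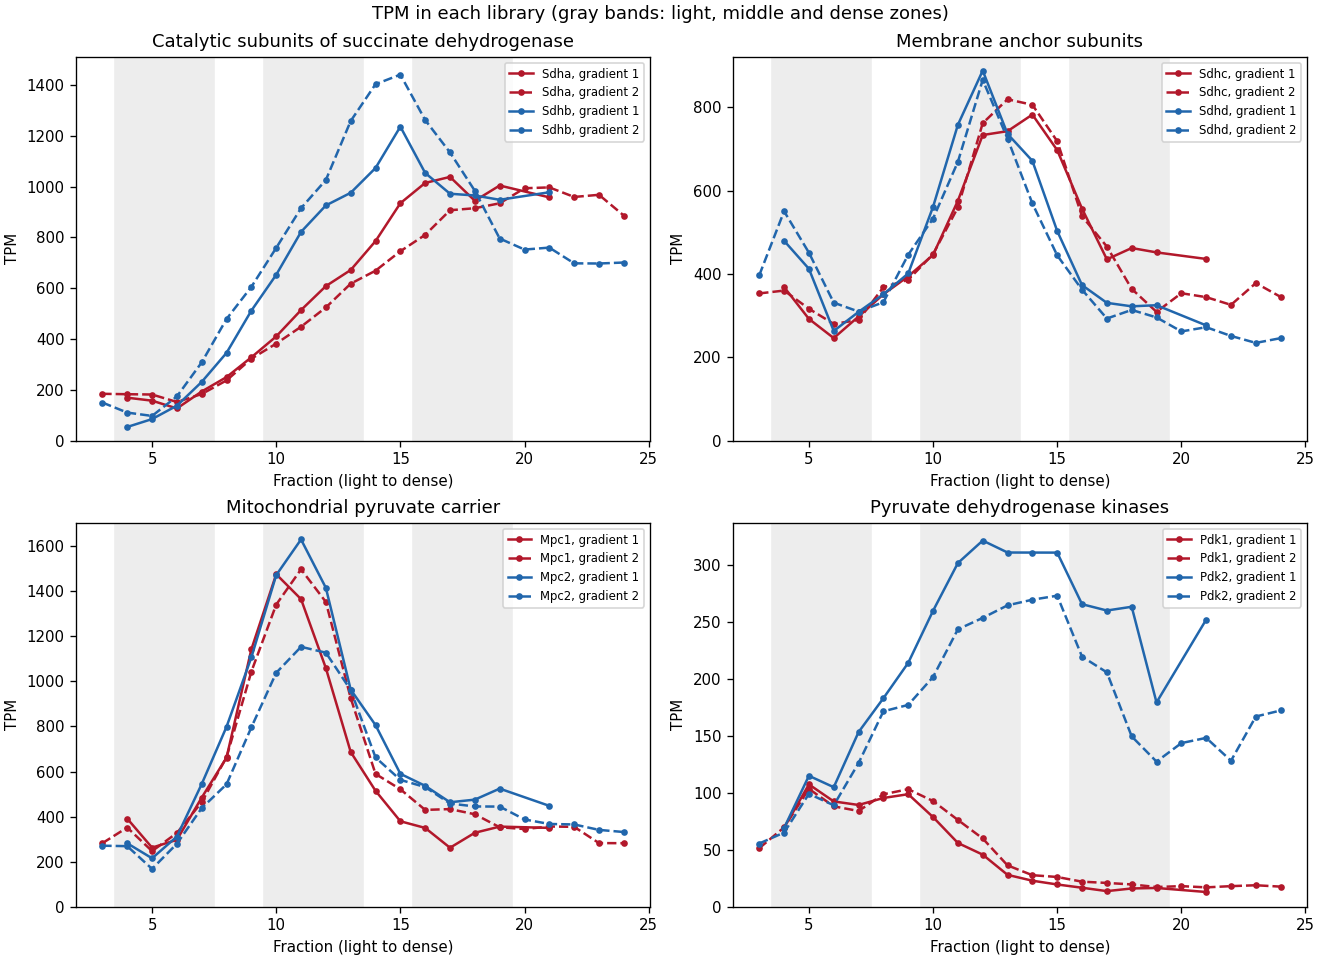
TPM in each library against fraction number for Sdha and Sdhb, Sdhc and Sdhd, Mpc1 and Mpc2, and Pdk1 and Pdk2; solid lines are gradient 1, dashed lines gradient 2, and gray bands mark the light, middle and dense zones. Sdhd peaks at fraction 12 and Sdhb at fraction 15 in both gradients, the Mpc mRNAs peak at fractions 10 and 11, and Pdk1 is near its lowest level where Pdk2 is still high.

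Fh1, fumarase, and Mdh2, malate dehydrogenase, carry out the last steps of the cycle and were among the densest mRNAs. Mdh2 (chr5:135778480-135790398, plus strand) had TPM from 75.3 to 133 in the light libraries (median 94.6), from 240 to 471 in the middle libraries (median 344) and from 747 to 1098 in the dense libraries (median 916). None of its zones overlapped, and it was higher in the dense zone than in the light zone (change 3.24, SE 0.14, adjusted p = 0.000301) and than in the middle zone (1.41, SE 0.14, adjusted p = 0.007). From light to middle Mdh2 was higher by 1.82 (SE 0.14, limma adjusted p = 0.00119). Fh1 was higher by 2.90 in the dense than the light zone, also with no overlap between zones. The profiles of Fh1 and Mdh2 had an R of 0.968 in gradient 1 and 0.987 in gradient 2.

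The pyruvate dehydrogenase complex contains a decarboxylase made of Pdha1 and Pdhb, the acetyltransferase Dlat, the binding protein Pdhx and Dld. Pdhb, Dlat and Pdhx were higher in the dense than the light zone by 2.21, 1.59 and 2.15, with no overlap of libraries. Pdha1, the alpha subunit that the kinases phosphorylate, differed from its partner. It had 96.5 to 187 TPM in the light libraries (median 126), 105 to 146 in the middle libraries (median 129) and 163 to 193 in the dense libraries (median 184). The light libraries overlapped with both other zones. Its change from light to dense, 0.50, was called higher, and the call was lost without fraction 7 of gradient 1 (0.45, limma adjusted p = 0.054), without fraction 7 of gradient 2 (0.42, adjusted p = 0.0886) and after quantile normalization (0.25, adjusted p = 0.197). Pdha1 had 1.72 ± 0.03 times the TPM of Pdhb in the light zone, 0.598 ± 0.010 times in the middle zone and 0.516 ± 0.029 times in the dense zone (SD, n = 2). Both of these subunits are needed in equal numbers in the enzyme, and their mRNAs had an R of 0.870 in gradient 1 and 0.702 in gradient 2.

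The regulators of the complex did not move together. Pdk1 (chr2:71873224-71903858, plus strand) had TPM from 69.3 to 107 in the light libraries (median 88.7), from 27.9 to 92.7 in the middle libraries (median 57.9) and from 13.7 to 21.9 in the dense libraries (median 16.9). Every dense library lay below every other zone library, and Pdk1 was lower in the dense than the light zone (change −2.24, SE 0.20, adjusted p = 0.000536) and than the middle zone (−1.60, SE 0.20, adjusted p = 0.00714). Its change from light to middle, −0.64 (SE 0.20, adjusted p = 0.0445), was called as well, but it was no longer called when any of 5 libraries was left out, namely fractions 5 and 13 of gradient 1 and fractions 5, 12 and 13 of gradient 2 (−0.63 to −0.51, adjusted p 0.0508 to 0.148).

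Pdk2, another inhibitory kinase of the complex, took a different course. It ran from 65.1 to 153 TPM in the light libraries, from 202 to 321 in the middle libraries and from 127 to 266 in the dense libraries, and was higher by 1.42 in the middle than the light zone and by 1.02 in the dense than the light zone. The ratio of Pdk1 to Pdk2 was 0.896 ± 0.065 in the light zone, 0.233 ± 0.075 in the middle zone and 0.0918 ± 0.0353 in the dense zone (SD, n = 2). Pdk4, a kinase known to be raised by fasting, was low and differed in level between the mice, with a mean TPM of 9.54 in gradient 1 and 2.76 in gradient 2. No zone comparison of Pdk4 passed the test, but with the replicate block it was lower in the middle than the light zone (−0.56, limma adjusted p = 0.00891) and higher in the dense than the middle zone (0.66, adjusted p = 0.00699). It peaked at fraction 5 in both gradients, as did Pdp2, the phosphatase that reactivates the enzyme. Pdp2 was called higher in the dense than the middle zone (0.53, limma adjusted p = 0.0487), a call lost when any of 16 of the 24 zone libraries was left out (0.50 to 0.55, adjusted p 0.0512 to 0.0711). With the replicate block Pdp2 was also lower in the middle than the light zone (−0.42, limma adjusted p = 0.0125), as it was after quantile normalization (−0.57, adjusted p = 0.0256).

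Mpc1 and Mpc2 form the mitochondrial pyruvate carrier of the inner membrane, and their mRNAs peaked sharply in the middle of the gradient. Mpc1 (chr17:8282904-8297661, plus strand) had TPM from 247 to 484 in the light libraries (median 339), from 687 to 1498 in the middle libraries (median 1347) and from 262 to 433 in the dense libraries (median 354). Mpc2 had 168 to 544 in the light libraries (median 280.4), 962 to 1630 in the middle libraries (median 1141) and 444 to 536 in the dense libraries (median 469). For both, all middle libraries were above all light and dense libraries. From middle to dense Mpc1 changed by −1.70 (SE 0.18, adjusted p = 0.007) and Mpc2 by −1.31 (SE 0.19, adjusted p = 0.00821). The order of the falls depended on scaling: after quantile normalization Mpc2 (−1.48) fell more than Pdk1 (−1.23). Their profiles had an R of 0.952 in gradient 1 and 0.967 in gradient 2. Between the dense and light zones Mpc1 changed by 0.07, which was not called and was negative after quantile normalization (−0.37), whereas Mpc2 was called higher (0.71), a call lost after quantile normalization (0.27, limma adjusted p = 0.31).

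Pcx, the pyruvate carboxylase that feeds both the cycle and gluconeogenesis, followed a different course from the carrier. It ran from 73.9 to 285 TPM in the light libraries (median 137), from 321 to 751 in the middle libraries (median 493) and from 702 to 1360 in the dense libraries (median 991), and was higher by 2.79 in the dense than the light zone. Gradient 1 held more of it than gradient 2 in the dense zone (1273 against 768 TPM), although its changes were close in both, 2.92 and 2.66. In gradient 2 it was highest in fraction 24, at 1186 TPM.

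Among the linked enzymes, Nnt, the transhydrogenase of the inner membrane that makes NADPH, was higher by 1.21 in the dense than the light zone and peaked at fraction 15 in both gradients. The mm10 reference is that of a strain in which Nnt carries a deletion, and the part of this in its values was not tested. Glud1, glutamate dehydrogenase, which releases ammonia and 2-oxoglutarate from glutamate, did not follow the others. Its TPM ran from 1240 to 2717 in the light libraries (median 1775), from 1007 to 1294 in the middle libraries (median 1191) and from 1409 to 1822 in the dense libraries (median 1569), and it was highest at fraction 5 in both gradients. No zone comparison of Glud1 passed the test. With the replicate block it was lower in the middle than the light zone (−0.62, limma adjusted p = 0.0097) and higher in the dense than the middle zone (0.44, adjusted p = 0.0409). It was called lower from light to middle also without fraction 7 of gradient 2 (−0.67, adjusted p = 0.0358).

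The malate-aspartate shuttle, which carries reducing equivalents into mitochondria, uses a cytosolic and a mitochondrial form each of malate dehydrogenase (Mdh1 and Mdh2) and of aspartate aminotransferase (Got1 and Got2). These forms are made from separate genes whose products work in different compartments, and their mRNAs sedimented alike. Mdh1 had TPM from 127 to 279 in the light libraries (median 187), from 387 to 830 in the middle libraries (median 560.1) and from 1296 to 1912 in the dense libraries (median 1469), with no overlap between zones. It was higher in the dense than the light zone (3.02, SE 0.20, adjusted p = 0.00032), in the middle than the light zone (1.60, SE 0.20, adjusted p = 0.00254) and in the dense than the middle zone (1.42, SE 0.20, adjusted p = 0.00818). Mdh2 exceeded Mdh1 in its change from light to dense by 0.21 ± 0.07 (SD, n = 2) and in that from middle to dense by −0.01 ± 0.03. The profiles of Mdh1 and Mdh2 had an R of 0.986 in gradient 1 and 0.993 in gradient 2. High values were not particular to paralogs: Fh1 and Mdh2 had 0.968 and 0.987. The median over all 561 pairs of members was 0.774 and 0.595.

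Got1 was higher in the dense than the light zone by 2.05 (SE 0.31, adjusted p = 0.00237) and Got2 by 1.84 (SE 0.17, adjusted p = 0.000541). From light to middle, Got1 was higher by 1.01 (SE 0.31, adjusted p = 0.0388) and Got2 by 0.80 (SE 0.17, adjusted p = 0.0119). Both of these calls were lost after quantile normalization, and that of Got1 also without fraction 13 of gradient 1 (0.94, adjusted p = 0.0581). From middle to dense both changed by 1.04, and only Got2 was called (SE 0.17, adjusted p = 0.0102), since the SE of Got1 was 0.31 (adjusted p = 0.0532, and 0.00125 with the replicate block). Got1 was more abundant in gradient 2 in every zone, with a mean of 516 against 364 TPM in the dense zone. R between Got1 and Got2 was 0.986 in gradient 1 and 0.968 in gradient 2.

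Idh1 and Idh2, the cytosolic and mitochondrial NADP-dependent isocitrate dehydrogenases, were less alike. Idh1 had TPM from 191 to 396 in the light libraries (median 303), from 344 to 651 in the middle libraries (median 487) and from 917 to 1276 in the dense libraries (median 1052). It was higher in the dense than the middle zone (1.17, SE 0.17, adjusted p = 0.00827), in the dense than the light zone (1.86, SE 0.17, adjusted p = 0.000536) and in the middle than the light zone (0.70, SE 0.17, adjusted p = 0.0193). Its light and middle libraries overlapped, and the call from light to middle was lost after quantile normalization (0.24, adjusted p = 0.271). Idh2 exceeded Idh1 in its change from light to middle by 2.08 ± 0.20 (SD, n = 2) and fell short of it from middle to dense, by −0.63 ± 0.02. The ratio of Idh1 to Idh2 in TPM was 10.0 ± 1.2 in the light zone, 1.83 ± 0.18 in the middle zone and 2.90 ± 0.30 in the dense zone, and R between their profiles was 0.879 in gradient 1 and 0.645 in gradient 2. These differences between partners were not tested.

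**Figure D4:**
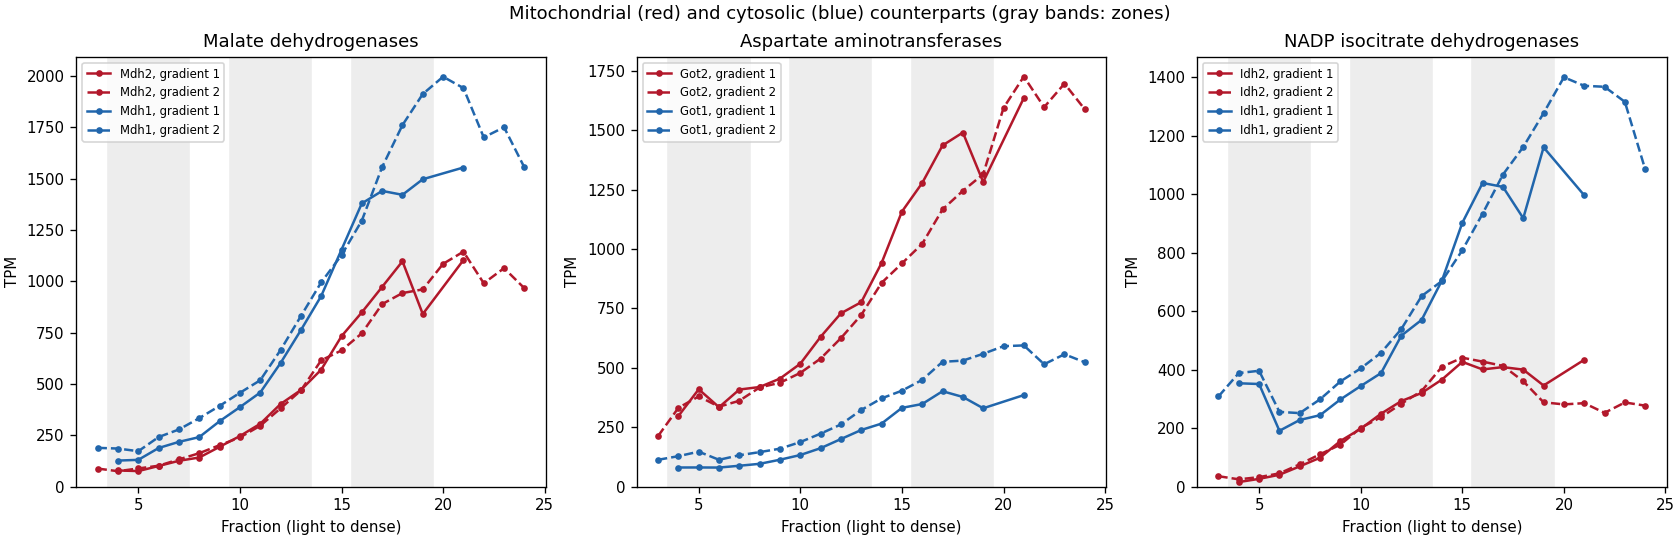
TPM against fraction number for the mitochondrial (red) and cytosolic (blue) forms of malate dehydrogenase, aspartate aminotransferase and NADP-dependent isocitrate dehydrogenase; solid lines are gradient 1, dashed lines gradient 2, and gray bands mark the zones. The curves of Mdh1 and Mdh2 and of Got1 and Got2 rise together, whereas Idh2 levels off or declines from fraction 15, where Idh1 is still below its highest level.

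The other genes of the pathway, a list of 26 of which 22 could be tested, had 14 higher and 3 lower from light to dense (median 1.17), against 22.3% and 39.6% of all genes. From light to middle 10 were higher and 0 lower (median 0.72), against 23.5% and 24.1%. From middle to dense 6 were higher and 4 lower (median 0.43), against 4.79% and 22.5%, so the share called lower was near that of all genes. With the gradient as a replicate block 12 were higher and 7 lower there (all genes: 14.1% higher, 39.3% lower). From light to dense the largest rise was that of Bckdha, a subunit of the branched-chain ketoacid dehydrogenase (2.88). The largest falls were those of Sdhaf1 (−1.67) and Sdhaf3 (−1.33), assembly factors of succinate dehydrogenase. From light to middle the largest rises were those of Bckdha (1.90) and Sdhaf4 (1.73), a further assembly factor. From middle to dense the largest called rise was that of Glul, glutamine synthetase (1.14), and the largest falls were those of Sdhaf3 (−1.90) and Sdhaf4 (−1.34). The 4 genes called lower from middle to dense without the block were the Sdhaf genes, with changes from −1.90 to −0.75, a group picked out after its values were seen.

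Counts for other nuclear genes of mitochondrial proteins are given for comparison, beside the same shares of all genes as above (from light to dense 22.3% higher and 39.6% lower, from light to middle 23.5% and 24.1%, from middle to dense 4.79% and 22.5%). Of 46 genes whose symbols start with Nduf, most of them subunits of complex I, 32 were higher and 3 lower from light to dense (median 1.37), 42 were higher and 2 lower from light to middle (median 2.13), and 4 were higher and 27 lower from middle to dense (median −0.94). Of 78 genes of the mitochondrial ribosome (Mrpl and Mrps), 44 were higher and 11 lower from light to dense (median 0.77), 70 were higher and 0 lower from light to middle (median 1.64), and 6 were higher and 49 lower from middle to dense (median −0.94). The zone mean was highest in the middle in 76.1% of the Nduf and 75.6% of the Mrpl and Mrps genes, in 29.9% of all genes and in 5 of the 34 members. These are counts beside each other, and the difference between the groups was not tested.

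Coding length was examined as a feature that played no part in choosing the genes. Of the 6 members whose mean was lower in the dense than the middle zone, 4 have the shortest coding sequences of the members in the GENCODE annotation: Mpc1 with 327 bases, Mpc2 with 381, Sdhd with 477 and Sdhc with 507. Over the 1545 genes with up to 600 coding bases, the median change from middle to dense was −0.98, and over the 2709 genes with more than 2100 it was −0.13. The other two members were Pdk1 and Pdk2, with 1302 and 1221 coding bases, in a range (1200 to 1500) where the median over 1446 genes was −0.17. Across the 34 members Spearman's rho between coding length and this change was 0.20, and across 10819 protein-coding genes it was 0.28. For the change from light to middle, rho with coding length was −0.22 across the members and −0.04 across all these genes. With the noncoding length of the mRNA, rho was −0.75 across the members and −0.37 across the 10819 genes for the change from light to middle, and −0.12 and −0.11 for that from middle to dense. At the extremes, Idh3g has 152 noncoding bases and Sdhb 296, whereas Pdk1 has 3883 and Pdp2 4096. Genes are not independent replicates, and these values describe the lists.

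**Figure D5:**
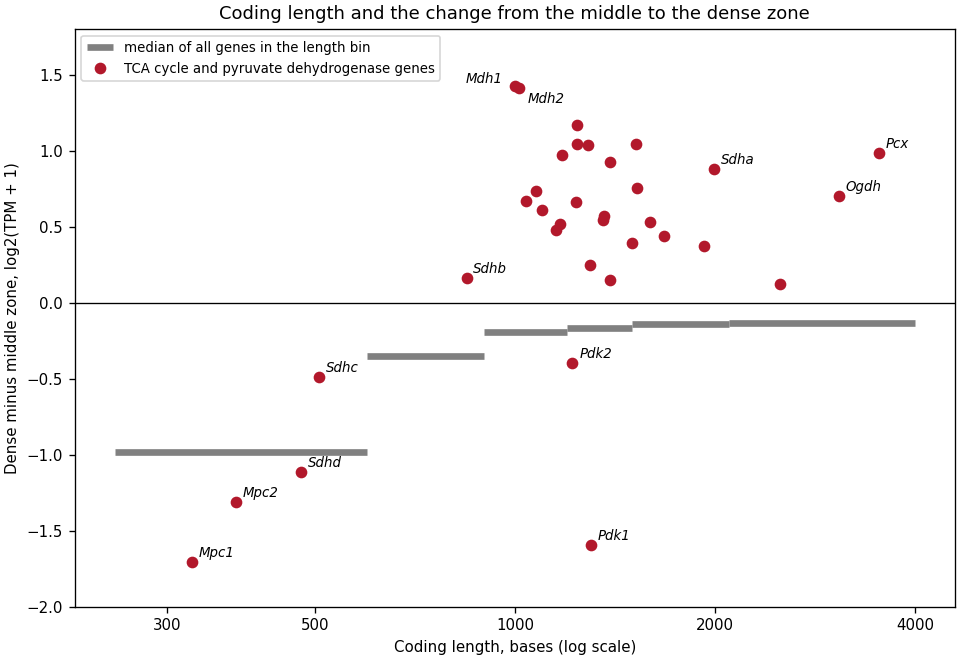
Dense minus middle zone difference in log2(TPM + 1), mean of 2 gradients, against coding length on a log axis for the 34 members (red points), with the median of all genes in 6 bins of coding length (gray bars; the last bin is open to longer genes). The 4 shortest members lie below 0 and near or below the bar of their bin at −0.98, apart from Sdhc at −0.49, and most longer members lie above the bars.

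Past the dense zone, gradient 2 also has fractions 22 to 24. There 14 of the 34 members were higher than in fractions 16 to 19 of the same gradient, with a median log2 ratio of TPM + 1 of −0.21, against 35.8% of all genes and a median of −0.10. Cs (0.55), Pcx (0.50), Got2 (0.45) and Ogdh (0.45) had the largest ratios, and Suclg1 (−0.59), Idh3a (−0.58) and Sdhb (−0.58) the lowest. Gradient 1 has no library of these fractions among those used here, and these ratios have no replicate.

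Markers of liver cell types also varied along the gradient, although all zones of a gradient came from 1 homogenate. Summed TPM of 6 hepatocyte markers ran from 21147 to 50212 in the light, 7666 to 14862 in the middle and 10443 to 24396 in the dense libraries, with 2 markers higher and 2 lower from light to dense. Summed TPM of 6 Kupffer cell markers was 121 to 178 in the light, 40.5 to 62.0 in the middle and 42.9 to 56.0 in the dense libraries (5 of 6 lower from light to dense), that of 5 sinusoidal endothelial markers 34.8 to 68.8, 21.5 to 59.5 and 15.1 to 33.9 (3 of 5 lower), and that of 5 stellate cell markers 31.9 to 77.0, 14.7 to 27.5 and 9.79 to 20.2 (4 of 5 lower). Markers of cholangiocytes (3 of 4 in both tables) stayed between 2.35 and 6.78, while 2 of 4 erythroid markers summed to 255 to 494 in the light, 132 to 450 in the middle and 66.4 to 106 in the dense libraries, with 1 of 2 lower from light to dense and from middle to dense. Muscle and adipocyte markers (0 of 3 each) are not in both tables. Beside these counts, 22.3% of all genes were higher and 39.6% lower from light to dense, and 22.5% were lower from middle to dense. The lists are short, and the hepatocyte counts were near these shares. The part of these markers in the results was not tested.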

How the data were processed

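RNA was measured in 39 libraries of mouse liver gradients. The authors prepared stranded libraries depleted of ribosomal RNA, converted the runs with bcl2fastq 2.16.0.10, pseudo-aligned the reads with kallisto (version not given in the sources used here) to RefSeq transcripts of mm10, and deposited 1 table of TPM per gradient, with 1 value per gene symbol and fraction. TPM keeps no read counts, so depth is unknown and no count model or counting interval was used. Precision is known from the spread between the 2 gradients, which come from separate mice. The number of value columns not matched to a sample was 0.

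Genes whose TPM averaged 1 or more over the 24 zone libraries were kept (11754 of 13230). Zone means of log2(TPM + 1), with a pseudocount of 1, were compared by limma 3.58.1 with a trend in eBayes over 6 values (3 zones, 2 gradients) and Benjamini-Hochberg adjustment over all genes. Within a gradient all zones come from 1 animal, and deviations of the gradients correlated across genes between zones (r = 0.665, 0.540 and 0.798), so a fit with the gradient as a block was also made. Full statistics are given for the 3 largest rises and falls past the threshold in each comparison and for the paralog pairs, and values and counts for the rest. Of the other pathway genes, the 2 largest rises and 2 largest falls past the threshold in each comparison are named, apart from 1 gene that is not reported here, and the Sdhaf genes as a group were chosen after their values were seen. Members and lists were chosen with earlier results of these data known. Positions and lengths are those of GENCODE M21 for GRCm38 (mm10), from 1 principal coding transcript per gene. No member overlaps, on its own strand, another gene of both tables (0 of 34), and 6 do so on the opposite strand. Libraries were stranded, but whether the pseudo-alignment used the strand is not given in the sources used here. Nnt has 2 gene entries in this annotation. Alternatives were the pseudocount, the TPM filter, scaling, zone borders, shifts of the fraction numbers and leaving out libraries. Python 3.11.15, NumPy 2.4.6, pandas 2.3.3 and R 4.3.3 were used.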

Additional observations from a re-analysis of the deposited data

How the results depend on the processing

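Over 11 other settings, 1020 of 1119 zone changes of members kept their direction and side of the threshold, 59 were called anew, 32 lost their call and 8 changed sign, none of the 8 being called in the reported fit. Calls were lost under at least 1 setting for Mpc2, Pdha1 and Sdhc (dense minus light), Dlst, Got1, Got2, Idh1, Pdk1 and Suclg2 (middle minus light), and Dld, Dlst, Idh3g, Pdhb, Pdp2 and Sdha (dense minus middle). The cause was not tested.

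The changed signs were 0.061 for Sdhd, dense minus light, with wider zones, −0.0045 and −0.016 for Pdk4 and −0.17 for Pdp2 with narrower or shifted zones, −0.37 (quantile normalization) and −0.083 (shift to the light end) for Mpc1, 0.13 for Pdha1, middle minus light, and −0.045 for Sdhb, dense minus middle, both with gradient 2 shifted to the light end. Leaving out gradient 1 or 2 moved Mpc1 to 0.26 or −0.12, dense minus light, and Pdha1 to −0.11 or 0.076, middle minus light, with no test.

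Members called lower from light to dense were 2 after quantile normalization (29.8% of all genes). Members lower from light to middle numbered 3 after quantile normalization (all genes: 24.5%), 3 with TPM rescaled without the 50 most abundant genes (26.9%), 3 with narrower zones (26.8%), 0 with wider zones (20.7%), 0 with gradient 2 shifted to the dense end (18.1%) and 5 with the gradient as a replicate block (35.0%), beside 24.1% of all genes as reported. Members higher from middle to dense numbered 18 after quantile normalization (all genes: 10.5%), 18 with the rescaled TPM (6.72%), 5 with gradient 2 shifted to the light end (2.20%) and 24 with the replicate block (14.1%), beside 4.79% of all genes as reported. Counts of all genes called went from 7274 of 11754 tested to 4798 of 7233 with a mean TPM of 10 or more (light to dense), from 5589 to 8478 with the replicate block (light to middle), and from 3208 to 1940 with the shift to the light end and 6275 with the replicate block (middle to dense).

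With 1 library left out, 9 to 17 members were higher from middle to dense (all genes: 3.35 to 5.84%), the 17 and the 5.84% without fraction 13 of gradient 1, and 0 to 2 were lower from light to middle (all genes: 22.0 to 25.7%). Dlst then lost its call from middle to dense without fraction 7 or 10 of gradient 1 (limma adjusted p = 0.0504 and 0.0616), and calls were gained there by Cs, Got1, Idh2, Idh3b, Ogdh, Pdha1, Sdhc and Suclg1. Without fraction 5 of gradient 2 the dense minus light change of Mpc1 was −0.0052, and without any of 5 libraries the middle minus light change of Pdha1 was positive (0.0028 to 0.05), neither being called. Over the 34 members, R between gradients on the log2 scale had a median of 0.978, and centers over all 22 fractions of gradient 2 a median of 15.3 in place of 13.7. Depth is unknown from TPM, and Pdk4 is not tested at a mean TPM of 10 or more.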
